A study of Mus musculus with 3 samples.

Results

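The genes described here carry the interferon response and antigen presentation, measured in sorted stromal cells of mouse bone marrow. The list of 54 genes was drawn up from known roles and not selected by value, but earlier results of these data were known. It falls into receptors and Stats, interferon regulatory factors, antiviral effectors and MHC machinery. Members were found through probesets that the array annotation assigns to exactly 1 gene, and a gene needed at least 4 such probesets. Of the 54 genes, 52 met this rule, out of 18865 genes measured in all. Around that limit, Ifit1, Ifitm1 and Ubd entered with 4 probesets each, Ifit3 had 3 and was left out, and Isg15 was not analysed here.

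RNA came from freshly isolated GFP-positive marrow cells of C57BL/6 mice whose GFP is driven by the nestin promoter, a reporter that marks a rare stromal cell around marrow vessels. The cells were sorted by flow cytometry, and the RNA was amplified before hybridisation to 3 Affymetrix arrays, numbered 1 to 3 as in the sample titles. All 3 arrays share this genotype and treatment, and no age, second genotype or stimulus is given. No interferon-treated or control cells were measured, so the values show which of these genes gave a signal in the sorted cells, not whether interferon raised them. Nothing in the labels says whether the samples came from different mice, and p-values cover only the spread between these 3 samples.

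Interferons are secreted proteins that warn cells of infection. Type I interferons bind the receptor pair Ifnar1 and Ifnar2, and interferon-gamma binds Ifngr1 and Ifngr2. Jak kinases then activate Stat proteins, which enter the nucleus with Irf9 or as Stat dimers and switch on antiviral genes and the genes that load peptides on MHC molecules. MHC class I is carried by nearly all nucleated cells, while MHC class II belongs mainly to B cells, dendritic cells and macrophages.

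Each value below is a gene's level on the log2 scale, the median of its probesets on an array. A gene was set against a threshold measured on the same array, the 95th percentile of 355 olfactory, vomeronasal and bitter taste receptor genes, which marrow cells should not use. The threshold was 5.40, 5.66 and 5.64 on arrays 1, 2 and 3. The margin is a gene's log2 level minus that threshold, averaged over the arrays, and a gene is called when limma's one-sided test gives a Benjamini-Hochberg adjusted p below 0.05 over all genes. For this test limma drew a gene's variance over the arrays towards that of all genes. A gene with a wide spread could therefore still be called. Probes differ in affinity, so no gene's level or margin is set against another gene's.

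Most interferon and antigen presentation genes gave a signal above this background. Of the 52 members 42 (80.8%) were called, where 50.6% of all genes tested were called. The median margin was 1.90 over the members and 0.50 over all genes. Against a stricter threshold, the 95th percentile of 87 genes of other tissues such as liver, retina and testis, 25 of the 52 members were called and 20.5% of all genes. Of those 87 genes, 14 (16.1%) were themselves called against the chemosensory threshold, so a call with a small margin is weak evidence of expression. All 5 receptors and Stats passed, 7 of 8 regulatory factors, 19 of 24 antiviral effectors and 11 of 15 genes of the MHC machinery. The 10 members without a call were Irf4, Ifit2, Ifitm1, Rsad2, Mx1, Mx2, H2-Aa, H2-Ab1, Cd74 and Ciita.

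**Figure D1:**
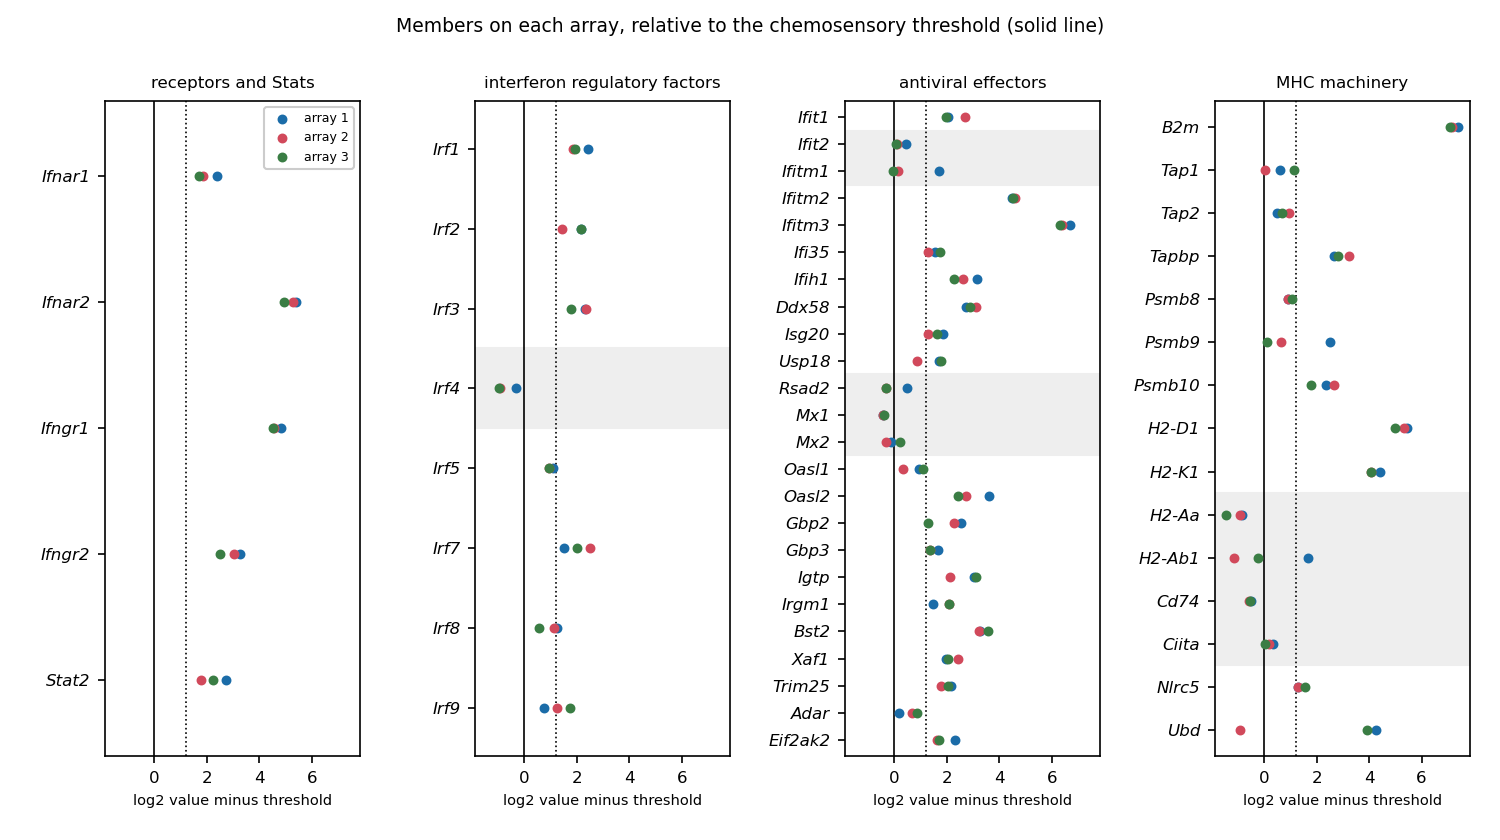
Level of each of the 52 members on arrays 1, 2 and 3 minus the chemosensory threshold of the same array (x axis, log2 scale), in 4 panels by role. Grey rows were not called, the solid line is the threshold and the dotted line the mean distance to the other-tissue threshold. The 4 class II genes H2-Aa, H2-Ab1, Cd74 and Ciita were not called, while the 11 other genes of the MHC machinery were.

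**Figure D2:**
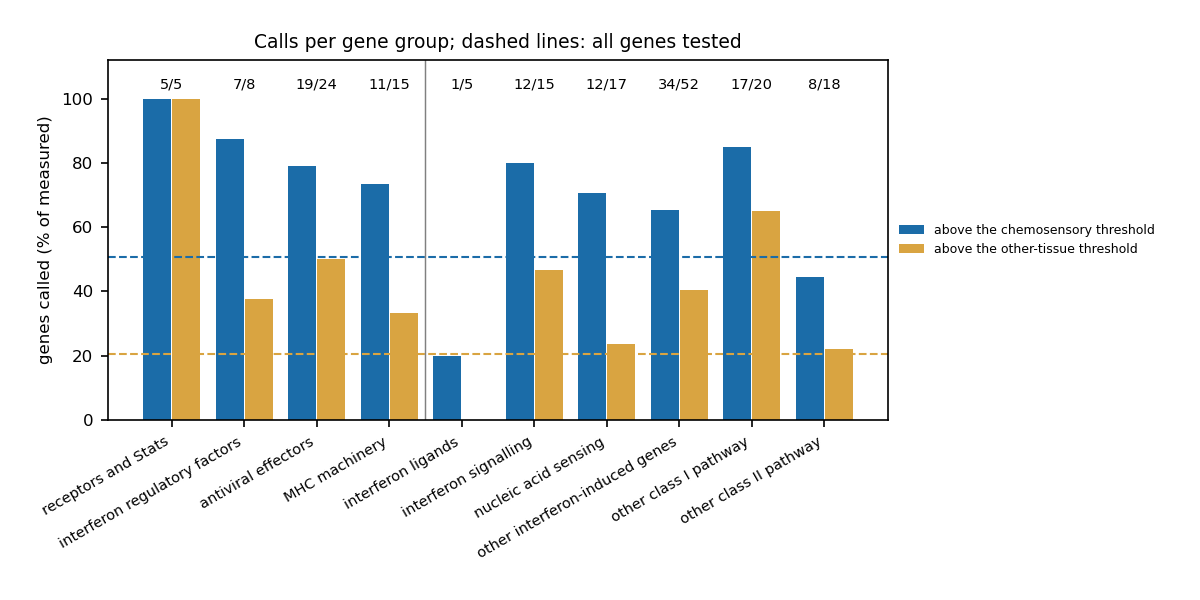
Share of measured genes called in each group (y axis, percent), against the chemosensory threshold in blue and the other-tissue threshold in yellow, with called over measured genes above each pair. Groups left of the vertical line are members and groups right of it are other genes of the pathway. The dashed lines are the shares over all genes, 50.6% and 20.5%, and only the groups of interferon ligands and of other class II genes lie under the upper one.

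Markers of the labelled stroma were above background on these arrays. Of 14 perivascular stromal genes 13 were called, among them Cxcl12 with 11.75 ± 0.14 (SD, n = 3), Kitl with 10.62 ± 0.27 and Cdh11 with 11.63 ± 0.17, while Nes itself, at 5.97, 5.21 and 5.56 on arrays 1, 2 and 3, was not (adjusted p = 0.757, limma). Calls were rare among markers of the lymphoid, dendritic and macrophage lists, at 1 of 11 for B cells, 2 of 12 for T and NK cells, 1 of 9 for dendritic cells and 3 of 15 for macrophages and monocytes. Neutrophil genes gave 9 of 12, including S100a8 with 9.81 ± 0.44 and Camp with 8.20 ± 0.33, pan-leukocyte genes 4 of 14 and erythroid genes 3 of 10, including Hbb-b1. Endothelial genes gave 13 of 17, and all 17 were lowest on array 2. Over all genes the share called was 50.6%. The other-tissue threshold, passed by 20.5% of all genes, was passed by 13 stromal, 2 endothelial, 2 neutrophil and 2 pan-leukocyte genes. The erythroid, B cell and dendritic lists had 1 such gene each, and the T and NK cell and macrophage lists 0. Lists differ in genes and probes and hold uncalled genes, so summed signals are compared between arrays and not between lists. The linear signal summed over a list's genes ranged over the arrays from 22555 to 24347 for the stromal list, from 1859 to 3291 for the neutrophil list, from 1585 to 1703 for the pan-leukocyte list and from 1094 to 4579 for the endothelial list. The part of these other cells in the members' levels was not tested.

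The receptors for both kinds of interferon were above background on every array. Ifnar2, a chain of the type I receptor, had 10.79, 10.93 and 10.59 on arrays 1, 2 and 3, a margin of 5.20 ± 0.22 (SD, n = 3, adjusted p = 2.69e-07, limma). Its partner Ifnar1 had 7.80, 7.50 and 7.35, a margin of 1.99 ± 0.37 (adjusted p = 3.15e-05, limma). The 3 arrays were close for both chains.

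Ifngr1, the ligand-binding chain of the interferon-gamma receptor, had 10.22, 10.20 and 10.17, and its margin was 4.63 ± 0.17 (SD, n = 3, adjusted p = 3.24e-07, limma). Centred as described below, it spanned 0.01 on the log2 scale over the arrays, where the median gene had 0.51. Ifngr2, the signalling chain, had 8.66, 8.71 and 8.13, with array 3 the lowest. Stat2, which pairs with Irf9 in the type I complex, had 8.12, 7.44 and 7.89, with array 2 the lowest. All 5 genes also passed the other-tissue threshold. Their probesets were not uniform. On all 3 arrays, 12 of 13 probesets of Ifnar2 and 11 of 12 of Ifngr1 exceeded the probeset threshold described below, compared with 9 of 22 for Ifnar1 and 10 of 28 for Stat2.

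Downstream of the receptors, the kinases were called as well. From the list of other signalling genes, Jak1 had 10.13, 8.93 and 9.85 on arrays 1, 2 and 3, Jak2 had 8.46 ± 0.14 (SD, n = 3) and Tyk2 had 6.14 ± 0.16. Of 15 measured genes on that list 12 were called and 7 passed the other-tissue threshold, where the shares of all genes were 50.6% and 20.5%. The feedback inhibitor Socs1 (7.13 ± 0.17) was among the called genes, but neither Socs1 nor Tyk2 passed the other-tissue threshold. Of the other called genes Pias1, a Stat inhibitor, had 8.12 ± 0.31 and Ptpn1, a phosphatase, 7.85 ± 0.59. The uncalled genes included Ifnlr1 (4.84 ± 0.19), the specific chain of the interferon-lambda receptor, which epithelial cells use.

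Of the 8 interferon regulatory factors all but the lymphoid member Irf4 were called. Irf1, which interferon-gamma induces, had 7.85, 7.52 and 7.57 on arrays 1, 2 and 3, a margin of 2.08 ± 0.32 (SD, n = 3, adjusted p = 2.01e-05, limma). Its antagonist Irf2 had 7.56, 7.09 and 7.81. Irf3, which the cytosolic nucleic acid sensors activate, had 7.72, 8.02 and 7.43. These 3 genes, Irf1, Irf2 and Irf3, also passed the other-tissue threshold, and their centred values spanned at most 0.76 over the arrays.

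Irf7, the amplifier of the type I response, had 6.92, 8.15 and 7.67, and Irf9, the DNA-binding partner of the Stats, had 6.15, 6.92 and 7.38, both lowest on array 1. Array 1 was the lowest for 10 of 13 probesets of Irf7 and for 9 of 14 of Irf9. Both were called against the chemosensory threshold (adjusted p = 5.08e-05 and 0.000853, limma) and neither against the other-tissue one. Irf5, a factor of myeloid and B cells, had 6.51, 6.59 and 6.57, and Irf8, which dendritic cells and monocytes require, had 6.67, 6.78 and 6.20. Irf5 was not called with the upper quartile over probesets (adjusted p = 0.0751, limma). Irf5 and Irf8 lay above the first threshold but 0.21 and 0.22 below the other-tissue threshold on the log2 scale. Irf4, needed by plasma cells and activated lymphocytes, had 5.08, 4.75 and 4.67, below the threshold on every array. A missing call leaves low expression possible.

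Antiviral effectors were called in 19 of 24 cases, and 12 of the 24 passed the other-tissue threshold. The Ifitm proteins sit in membranes and hinder viral entry. Ifitm3 had 12.11, 12.04 and 11.97 on arrays 1, 2 and 3, a margin of 6.47 ± 0.21 (SD, n = 3, adjusted p = 2.67e-07, limma). Ifitm2 had 9.89, 10.26 and 10.18, a margin of 4.54 ± 0.06 (adjusted p = 3.12e-07, limma). All 6 probesets of Ifitm3 and all 9 of Ifitm2 exceeded the probeset threshold on all arrays. Ifitm1 was not called, with 7.12, 5.80 and 5.61 (adjusted p = 0.0947, limma). Its call depends on the setting, since it passed with the mean over probesets (adjusted p = 0.00192, limma), with the upper quartile (0.00266), without array 2 (0.00727) and without array 3 (0.0229). A further 6 probesets name Ifitm1 together with a second locus, and their medians were 9.02, 8.86 and 8.31. Sequence shared within this family may let a probeset read more than 1 member.

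Bst2, the tetherin that holds budding viruses on the cell surface, had 8.69, 8.89 and 9.23 on arrays 1, 2 and 3, and array 1 was the lowest for all 5 of its probesets. The cytosolic RNA sensors Ddx58, the gene of RIG-I, and Ifih1, the gene of MDA5, were both called. Ddx58 had 8.15, 8.76 and 8.54, and array 1 was the lowest for 17 of its 28 probesets. Ifih1 had 8.56, 8.28 and 7.92, with array 3 the lowest for 12 of 27 probesets. The order of the arrays thus differed between these genes. Oasl2, an oligoadenylate synthetase-like protein, had 9.02, 8.41 and 8.08, and Ifit1, which binds foreign RNA caps, had 7.46, 8.36 and 7.62.

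The members among the interferon-inducible GTPases that act on vacuoles of pathogens were also above background. Igtp had 8.43, 7.78 and 8.76 on arrays 1, 2 and 3, Irgm1 had 7.45 ± 0.49 (SD, n = 3), Gbp2 had 7.60 ± 0.59 and Gbp3 had 7.03 ± 0.04. Igtp and Gbp2 passed the other-tissue threshold, and Irgm1 and Gbp3 did not. The remaining called effectors were Xaf1 (7.72 ± 0.36), a pro-apoptotic protein, Trim25 (7.57 ± 0.14), the ubiquitin ligase of RIG-I, the RNA-activated kinase gene Eif2ak2 (7.45 ± 0.23), Isg20 (7.16 ± 0.18), an exonuclease, Ifi35 (7.10 ± 0.24), Usp18 (7.02 ± 0.44), the protease that removes Isg15, Oasl1 (6.36 ± 0.37) and Adar (6.15 ± 0.50). Of these only Xaf1, Trim25 and Eif2ak2 passed the other-tissue threshold. Adar, the RNA-editing enzyme, had 5.58, 6.33 and 6.53, was the lowest on array 1 for 17 of 24 probesets, and lost its call without array 2 (adjusted p = 0.0821, limma) and without array 3 (0.146).

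Several genes known for strong induction by type I interferon lay at the threshold. Rsad2, the gene of viperin, had 5.88, 5.35 and 5.35 on arrays 1, 2 and 3, a margin of -0.04 ± 0.45 (SD, n = 3, adjusted p = 0.876, limma). Mx2 had 5.27, 5.36 and 5.86, a margin of -0.07 ± 0.26. Mx1, an antiviral GTPase whose gene is defective in most laboratory strains, had 4.97, 5.25 and 5.26, below the threshold on every array. Ifit2 had 5.84, 5.76 and 5.70 and was not called (adjusted p = 0.273, limma), but it passed with the mean over probesets (0.0388) and with the upper quartile (0.00754). These values place the 4 genes within 0.41 of the threshold on the log2 scale, on either side.

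Interferon acts on such genes through the interferon-stimulated response element (ISRE), a promoter element bound by the Stat2 and Irf9 complex and by regulatory factors, and through the interferon-gamma activated site (GAS). The RefSeq promoter table of build GRCm38.p6, which gives 250 bases before and 50 after each gene start, held windows for 46 of the 54 listed genes. The ISRE core GAAANNGAAA was searched on both strands, with overlapping matches counted, and 17 of the 46 genes had it, compared with 3.99% of all 27025 genes in the table. The longer form GAAANNGAAACT was in 8 of 46, compared with 0.303% of all genes, and TTCNNNGAA, the GAS letters, in 14 of 46, compared with 9.55%. The members are known interferon genes, so this is a description of the list. Of 15 measured genes with the ISRE core 14 were called, and of 29 with a window but no match 25 were called.

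The 160 bases before the start of 5 called members are shown to place the element near the start, from the effector genes Ifit1, Bst2, Irgm1 and Gbp2 and from B2m. Capitals mark every match of the ISRE core on either strand, and each sequence runs 5′ to 3′ along the gene's strand in GRCm38.p6. Ifit1 lies at chr19:34640729-34640888 on the plus strand, Bst2 at chr8:71537473-71537632 on the minus strand, Irgm1 at chr11:48871421-48871580 on the minus strand, Gbp2 at chr3:142620503-142620662 on the plus strand and B2m at chr2:122147527-122147686 on the plus strand.
Ifit1: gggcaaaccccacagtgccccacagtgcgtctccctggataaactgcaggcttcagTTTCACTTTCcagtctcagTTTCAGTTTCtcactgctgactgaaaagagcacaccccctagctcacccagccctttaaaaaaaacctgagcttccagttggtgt
Bst2: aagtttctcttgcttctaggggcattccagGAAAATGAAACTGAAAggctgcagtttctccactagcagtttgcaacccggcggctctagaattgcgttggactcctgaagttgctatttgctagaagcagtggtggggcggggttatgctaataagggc
Irgm1: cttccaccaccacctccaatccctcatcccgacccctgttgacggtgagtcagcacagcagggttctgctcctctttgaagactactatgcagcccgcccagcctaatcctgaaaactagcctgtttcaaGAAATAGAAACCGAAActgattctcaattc
Gbp2: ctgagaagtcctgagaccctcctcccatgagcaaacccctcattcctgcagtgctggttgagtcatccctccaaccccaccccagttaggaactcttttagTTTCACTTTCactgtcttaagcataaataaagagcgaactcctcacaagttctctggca
B2m: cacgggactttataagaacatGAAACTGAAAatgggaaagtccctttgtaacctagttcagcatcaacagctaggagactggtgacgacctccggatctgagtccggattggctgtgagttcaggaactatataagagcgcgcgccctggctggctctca

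Ifit1 has 2 separate matches, from base -104 to -95 and from -85 to -76, counted back from base -1 just before the start. In Bst2 and Irgm1 a pair of matches overlaps, and Gbp2 and B2m have 1 match each. A match of letters is no proof of a working site.

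All members of the MHC machinery outside the class II pathway were called. These 11 members are the class I genes and Ubd, the gene of a ubiquitin-like protein, and 5 of them also passed the other-tissue threshold. All but Ubd lay above the chemosensory threshold on every array. B2m, the light chain of class I, had 12.80, 12.81 and 12.70 on arrays 1, 2 and 3, a margin of 7.20 ± 0.18 (SD, n = 3, adjusted p = 2.67e-07, limma). The heavy chain genes were steady too, with 10.85, 10.98 and 10.61 for H2-D1 and 9.80, 9.72 and 9.70 for H2-K1. Class I genes share sequence, and 4 more probesets name both H2-K1 and H2-D1, with values between 10.66 and 12.71, so the signal of either gene may include that of its relatives.

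Tapbp, the gene of tapasin, which holds class I molecules at the peptide transporter, had 8.06, 8.89 and 8.44 on arrays 1, 2 and 3, a margin of 2.90 ± 0.30 (SD, n = 3, adjusted p = 3.03e-06, limma). The transporter genes were called as well. Tap1 had 6.00, 5.71 and 6.79 and Tap2 had 5.89, 6.61 and 6.31, and both were below the other-tissue threshold. Tap1 was no longer called without array 1 (adjusted p = 0.122, limma) or without array 3 (0.245), and Tap2 without array 2 (0.06). Nlrc5, the transactivator of class I genes, had 6.70, 6.95 and 7.21, with 7 of its 33 probesets over the probeset threshold.

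The 3 inducible subunits of the immunoproteasome, which trims peptides for class I, were all called. Psmb10 had 7.75, 8.33 and 7.44 on arrays 1, 2 and 3, and alone of the 3 passed the other-tissue threshold. Psmb8 had 6.33, 6.56 and 6.69. Psmb9 had 7.91, 6.30 and 5.74, and it was no longer called once array 1 was left out (adjusted p = 0.151, limma). The constitutive counterparts Psmb5 (8.17 ± 0.77, SD, n = 3), Psmb6 (10.09 ± 0.16) and Psmb7 (9.78 ± 0.37) passed both thresholds. Each subunit has its own probes, so these levels give no ratio of the 2 proteasome forms.

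Tap1 and Psmb9 are neighbours that are read in opposite directions. In GRCm38.p6 their starts lie on chromosome 17 at 34187556 (Tap1, plus strand) and 34187330 (Psmb9, minus strand), with 225 bases between them, at chr17:34187331-34187555. These bases are shown because both genes start at their ends while their array patterns differed, and they hold no match of the ISRE core, so that no letters are in capitals.
Tap1 and Psmb9: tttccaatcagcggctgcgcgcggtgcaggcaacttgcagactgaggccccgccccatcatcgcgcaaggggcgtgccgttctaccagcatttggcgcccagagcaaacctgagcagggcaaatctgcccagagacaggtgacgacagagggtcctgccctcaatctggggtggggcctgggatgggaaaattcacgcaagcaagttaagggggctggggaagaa

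After centring, Psmb9 stood 1.24 above its own mean on array 1 and 0.88 below it on array 3 (log2 scale), while Tap1 stood at -0.19 on array 1 and at 0.66 on array 3. The Tap1 order is that of its gene median, since 11 of its 19 probesets were highest on array 2 and 6 were lowest there. The difference between these neighbours was not tested.

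The class II pathway gave no calls among the members. H2-Aa, an alpha chain gene of class II, had 4.56, 4.76 and 4.21 on arrays 1, 2 and 3, below the threshold on every array. Cd74, the invariant chain that accompanies class II, had 4.90, 5.08 and 5.10, also below it on every array. Ciita, the master regulator of class II genes, had 5.75, 5.84 and 5.66, a margin of 0.18 ± 0.16 (SD, n = 3, adjusted p = 0.301, limma). H2-Ab1, the beta chain partner of H2-Aa, had 7.08, 4.50 and 5.42, above the threshold on array 1 only. Of the 4 class II genes, limma called 0, with 0 at an unadjusted p below 0.05 and 1 (Ciita) above the threshold on all arrays. Without array 2, H2-Ab1 was called (adjusted p = 0.0194, limma), in a fit where limma used 1 common variance for all genes.

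The markers of cells that carry class II were mostly uncalled as well. The median margin was -0.22 for the B cell list, 0.11 for the dendritic list and -0.19 for the macrophage and monocyte list. Cd79a, of the B cell receptor, had 4.64, 5.07 and 4.82 on arrays 1, 2 and 3, the integrin gene Itgax of dendritic cells had 5.02 ± 0.11 (SD, n = 3), and Adgre1, the F4/80 antigen gene of macrophages, had 4.25 ± 0.13. Among the B cell, dendritic, macrophage and monocyte lists the called genes were Ebf1 (9.68 ± 0.18), which stromal cells also express, Tcf4 (8.42 ± 0.47), C1qb (6.44 ± 0.37), Lyz2 with 5.93, 6.72 and 8.03, and Mrc1, which sinusoidal endothelium also expresses, with 8.39, 4.44 and 9.15. From the pan-leukocyte list Ptprc, the gene of the leukocyte antigen CD45, had 4.68 ± 0.40 and was not called, while Arhgdib (9.45 ± 0.26), Lcp2 (8.47 ± 0.51), Rac2 (6.67 ± 0.46) and Hcls1 (6.24 ± 0.71) were, the first pair also against the other-tissue threshold. No measured marker of the 9 lists was at 0 on any array.

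**Figure D3:**
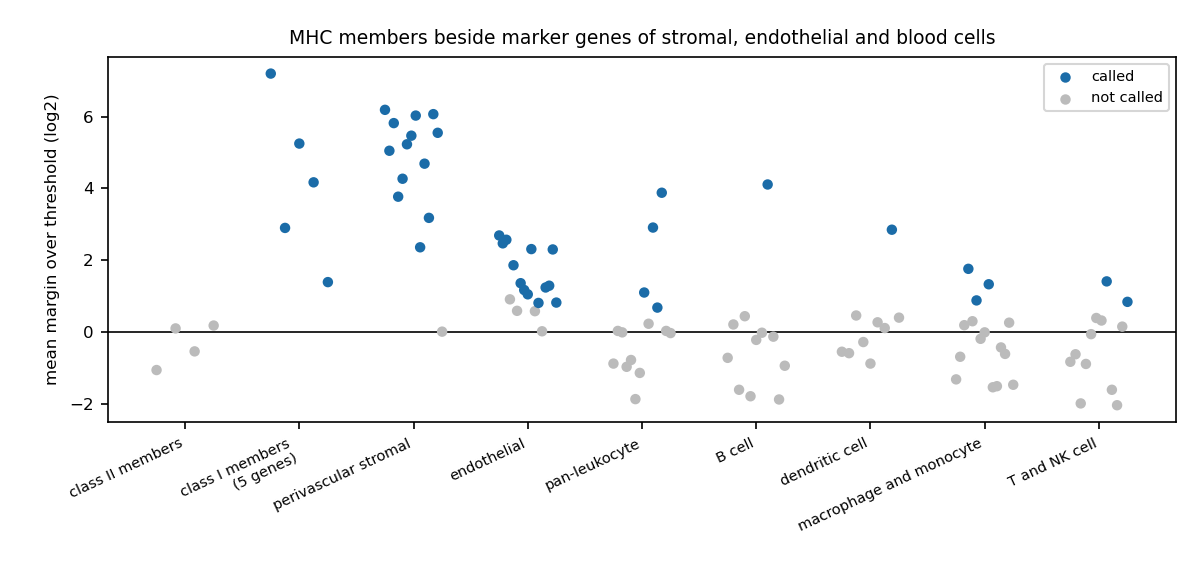
Mean margin over the chemosensory threshold (y axis, log2 scale, mean of 3 arrays), with 1 point a gene, blue where called. Shown are the 4 class II members, the class I members B2m, H2-D1, H2-K1, Tapbp and Nlrc5, and the markers of 7 cell type lists. The other genes of the MHC machinery, with margins from 0.60 (Tap1) to 2.42 (Ubd), and the neutrophil and erythroid lists are not shown. The class II points lie between -1.06 and 0.18, among the uncalled leukocyte markers, while 13 of the 14 stromal genes were called.

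Of 18 other measured genes of the class II pathway 8 were called, a share of 44.4%, against 50.6% of all genes. The class II genes H2-Eb1 (5.54 ± 0.46, SD, n = 3) and H2-Eb2 (5.56 ± 0.13) were not called, and the peptide editor gene H2-DMa had 4.76 ± 0.13. The 8 called genes were the lysosomal protease genes Ctsl (11.64 ± 0.22) and Lgmn (8.45 ± 0.48), the transcription factor genes Creb1 (8.60 ± 0.37), Nfya (6.65 ± 0.33) and Nfyc (7.79 ± 0.13), the class II promoter factor genes Rfxank (6.64 ± 0.46) and Rfxap (7.18 ± 0.70), and Cd40 (6.33 ± 0.25), a costimulatory receptor of antigen-presenting cells. Their partners Rfx5 (5.49 ± 0.20) and Nfyb (5.59 ± 0.29) were not called, nor was Cd86, a costimulatory ligand, with 4.08 ± 0.34. The class I counterpart list gave 17 of 20, with Calr at 11.09 ± 0.17, Pdia3 at 10.73 ± 0.08 and Psmb6 named above, while H2-T24 (5.57 ± 0.49), H2-M2 (4.31 ± 0.10) and H2-M10.1 (4.27 ± 0.60), the last a gene of vomeronasal neurons, were not called.

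The median of a gene's probesets hides differences along the gene. A probeset was counted as present when it exceeded, on all 3 arrays, the 95th percentile of chemosensory probesets (7.21, 7.38 and 7.16 on arrays 1, 2 and 3). Of the 717 probesets of the members 289 (40.3%) did so, compared with 24.8% of all 318760 probesets with 1 symbol and 3.69% of the chemosensory ones. All probesets passed for B2m (5), Ifitm2 (9), Ifitm3 (6) and Bst2 (5), and none of the probesets of Mx1 (8), Mx2 (19), Oasl1 (10), Ciita (30), H2-Ab1 (5) and Ubd (4).

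The probesets of Psmb9 differed widely. The upper 8 of 17 lay between 7.91 and 11.94 on every array and all passed, while the other 9 did not, although 1 of these reached 8.09 on array 1. With 17 probesets the median is the 9th, between these groups, and 13 of the 17 probesets were highest on array 1. Cd74 had 2 probesets that passed, with 9.44, 9.27 and 9.24 and with 8.67, 8.74 and 8.58 on arrays 1, 2 and 3, and the other 13 of its 15 did not. H2-Aa had 1 that passed, with 8.30, 8.85 and 8.11. So single class II probesets gave a signal, while most probesets of the gene did not.

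Single probesets also differed between arrays. The top probeset of Mx1 had 5.32, 9.43 and 8.11 on arrays 1, 2 and 3, and the next had 4.59, 8.39 and 6.61, while its remaining 6 stayed at or below 6.07. The top probeset of Rsad2 had 10.34, 8.85 and 10.06, the only one of 7 that passed. The positions of the probesets along the transcripts were not used here, so no exon can be named.

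**Figure D4:**
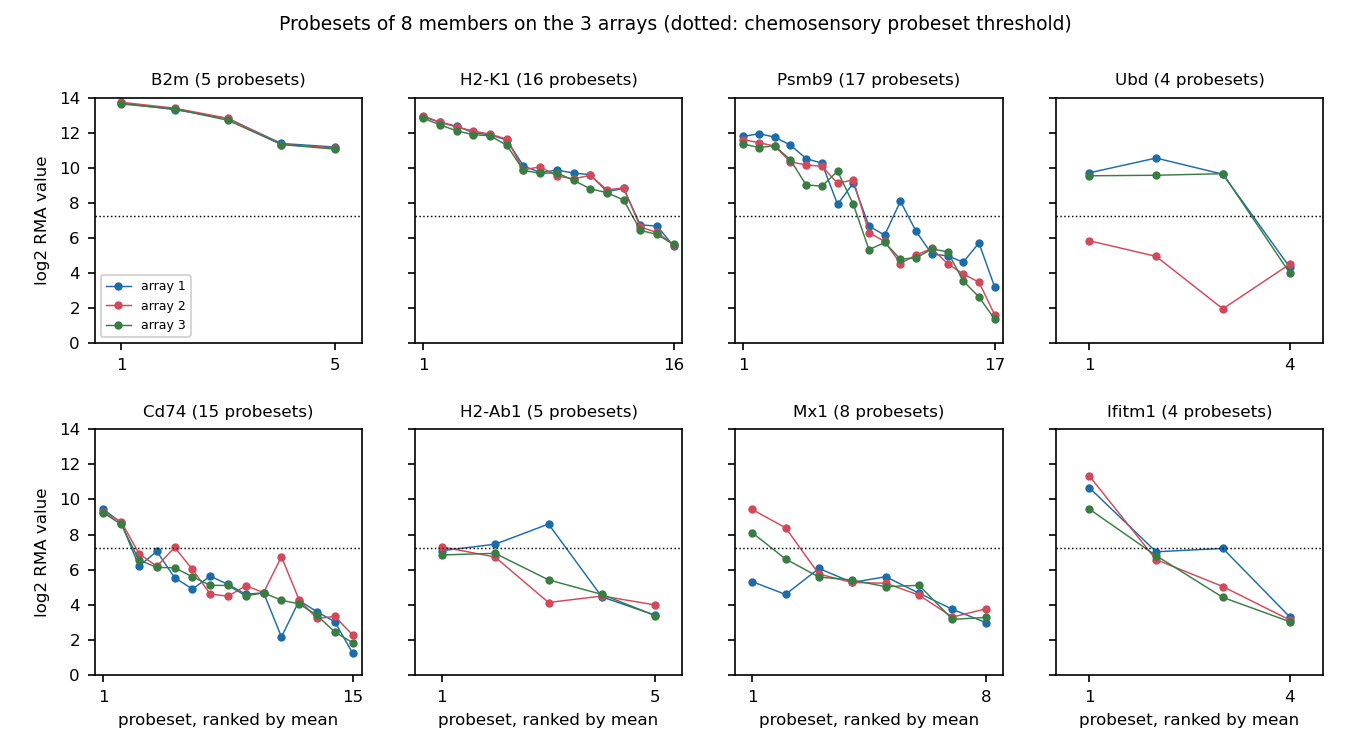
Log2 value of every probeset (y axis) of 8 members on arrays 1, 2 and 3, ordered by mean from left to right, with the mean chemosensory probeset threshold dotted. B2m lies above the line throughout, Psmb9 has 8 of 17 probesets above it, and 3 of the 4 Ubd probesets drop on array 2.

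The members were about as steady between arrays as other genes. Values were centred by each gene's mean and each array's median deviation. The median member then spanned 0.56 on the log2 scale, and the median gene 0.51. A range above 1 was found in 9 of 52 members, where 15.6% of all genes had one. Array 1 was the lowest for 18 members, array 2 for 16 and array 3 for 18, and over all genes the shares were 34.2%, 34% and 31.7%. With the upper quartile in place of the median over probesets, array 1 was the lowest for 26 of the 52 members and arrays 2 and 3 for 13 each, where array 1 was the lowest for 34.3% of all genes. The even split thus holds for the median and not for the upper probesets.

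Ubd, which encodes the ubiquitin-like protein FAT10, stood apart. Its levels were 9.67, 4.73 and 9.55 on arrays 1, 2 and 3, so that array 2 alone lay below the threshold. Of its 4 probesets 3 had 9.54 to 10.55 on arrays 1 and 3 and 1.96 to 5.84 on array 2, and the 4th was between 4.01 and 4.50 on all arrays. It was called with a margin of 2.42 ± 2.91 (SD, n = 3, adjusted p = 0.0231, limma). That SD exceeds the margin, and the test used a variance drawn towards that of all genes. Ubd was not called once array 1 (adjusted p = 0.248, limma) or array 3 (0.0537) was left out, or with the mean over probesets (0.0504) or their upper quartile (0.179).

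Endothelial genes were also lowest on array 2, all 17 of them, with a median centred deviation of 0.29, -0.89 and 0.62 on arrays 1, 2 and 3. Their summed linear signal was 3561, 1094 and 4579. Cdh5, the gene of VE-cadherin, had 9.14, 6.05 and 9.58, and Pecam1 had 8.92, 6.73 and 8.46. The summed signal was 874, 673 and 1363 for the macrophage list, where Mrc1 was low on array 2. It was 1853, 715 and 2004 for the erythroid list, where Hbb-b1 had 10.49, 8.33 and 10.56. Of the 10 measured erythroid genes 3 were lowest on array 2. The part of these cell types in the Ubd values was not tested. In RNA from whole sorted populations, fewer cells of a type and less RNA per cell cannot be told apart.

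The other 8 members with a range above 1 followed several orders. By its median H2-Ab1 was lowest on array 2 and highest on array 1, but 2 of its 5 probesets were lowest on array 2 and a single one, with 8.60, 4.13 and 5.42, had a wide range. The medians of Tap1 and Igtp were lowest on array 2 and highest on array 3, for Tap1 against the order of most of its probesets. Psmb9 and Ifitm1 were highest on array 1 and lowest on array 3, and Irf9, Irf7 and Adar were lowest on array 1.

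**Figure D5:**
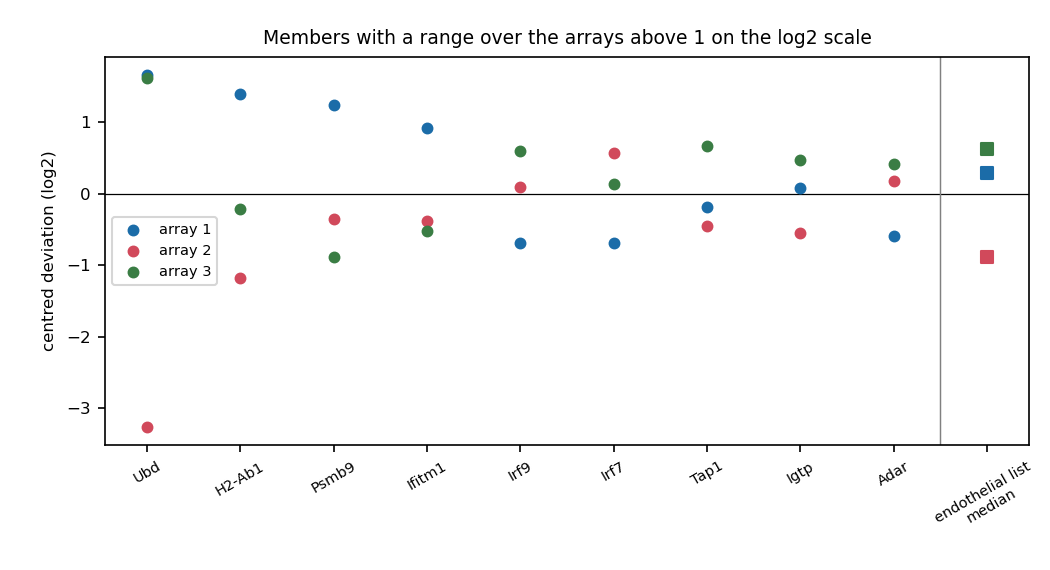
Centred deviation (y axis, log2 scale) on arrays 1, 2 and 3 of the 9 members with a range above 1, ordered by range, and of the median over the 17 endothelial genes (squares, right). Ubd is low on array 2 alone, at -3.26, as is the endothelial median, while H2-Ab1, Psmb9 and Ifitm1 are highest on array 1.

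Further interferon-induced genes outside the members were called in 34 of 52 cases, where 50.6% of all genes were called, and 21 passed the other-tissue threshold. They included the vacuolar GTPase genes Irgm2 with 10.32 ± 0.10 (SD, n = 3) and Iigp1 with 9.93 ± 0.12. Samhd1, which limits the nucleotide pool for viral replication, had 10.28 ± 0.13. Of the measured Gbp genes outside the members, Gbp5 and Gbp6 were called. Gbp2b (4.31 ± 0.27), Gbp4 (5.93 ± 0.89) and Gbp8 (4.15 ± 0.17) were not. The oligoadenylate synthetase genes were mostly uncalled, with Oas1a at 5.43, 6.10 and 4.63 on arrays 1, 2 and 3 and Oas2 at 4.98 ± 0.13, while Oas3 had 6.09 ± 0.08 and was called (adjusted p = 0.0237, limma). Ifit3b had 3.05 ± 0.73. Cxcl9, a chemokine induced by interferon-gamma, had 9.83, 9.81 and 9.42, and Cxcl10 had 8.69, 8.16 and 7.48, while the related Cxcl11 had 4.42 ± 0.09. Oas1a, Oas2, Cxcl9, Cxcl10 and Cxcl11 were chosen after their values were seen.

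Genes of nucleic acid sensing, a list of sensors with their adaptors and kinases, were called in 12 of 17 cases. Of the 17, 4 passed the other-tissue threshold, where the shares of all genes were 50.6% and 20.5%. These were the sensor gene Tlr3, the adaptor genes Tmem173 and Myd88 and the kinase gene Tbk1. The uncalled genes were all sensors, namely Tlr7, Tlr8, Tlr9, Mb21d1 and Aim2. Tlr3, which reads double-stranded RNA in endosomes, had 8.48, 8.66 and 8.47 on arrays 1, 2 and 3. The adaptor genes Myd88 and Tmem173 (STING) had 8.34 ± 0.40 (SD, n = 3) and 8.22 ± 0.45. The single-stranded RNA receptor Tlr7, used by plasmacytoid dendritic cells and B cells, had 4.06 ± 0.26.

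Few interferon genes could be measured. Of 5 interferon ligand genes with enough probesets 1 was called, Ifna2 with 6.11 ± 0.18 (SD, n = 3, adjusted p = 0.0198, limma), and the mean levels of all 5 lay below the other-tissue threshold. Ifng had 5.43 ± 0.12 and Ifnk 3.96 ± 0.07. Interferon-alpha genes are close copies of each other, so the signal assigned to Ifna2 is uncertain.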

How the data were processed

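The authors deposited log2 expression values per probeset, made with Affymetrix Expression Console 1.1 and RMA, per the submitters' processing notes. Settings of RMA were not found in the sources used here. Each array held 1256831 probesets from 0 to 13.7, with 20744 at exactly 0, and the number of arrays limits the precision. Platform annotation named 1 gene for 318760 probesets, several for 6684 and none for 931387; older symbols were updated through RefSeq GRCm38.p6 synonyms. A gene's value was the median of its probesets with 1 symbol, with at least 4 required. An intercept-only limma 3.58.1 model (R 4.3.3) was fitted to all genes' values minus the array threshold, one-sided, with Benjamini-Hochberg adjustment over 18865 genes and a threshold of 0.05. The fit was tested on simulated data.

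The members and gene lists were chosen with earlier results of these data known. The text accounts for all members and gives values per array for the receptors and Stats, the regulatory factors, the 8 called effectors and the 8 called MHC genes of largest margin, the class II genes, the 5 members of widest range and the 3 nearest the threshold on either side. From each pathway list it names the 3 called genes of largest margin and the gene of smallest margin, with the Jak kinases, and from marker lists mainly the leading and defining genes; some further genes served as examples. Alternatives were the 99th percentile, other-tissue genes, the mean or upper quartile of probesets, leaving out zeros, 1 probeset, unchanged symbols, a variance trend and leaving out each array. Sequences came from RefSeq GRCm38.p6 promoters.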

Additional observations from a re-analysis of the deposited data

How the results depend on the processing

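The count of members called was 42 and ranged from 39 to 42 without 1 of the arrays. It was 25 with the 99th percentile and 25 with the other-tissue threshold, in both cases all among the 42. These 2 thresholds gave 3 and 3 regulatory factors, 12 and 12 effectors, 5 and 5 MHC genes, and 50 and 49 of the other pathway genes. With genes of 1 probeset allowed, 7 MHC genes and 36 members were called. Leaving out an array gave 5 receptors and Stats, 7 regulatory factors and 19 effectors each time, 8 to 11 MHC genes and 77 to 82 other pathway genes. Called members whose margin turned negative were, with the 99th percentile, Irf5 (-0.23), Irf8 (-0.24), Oasl1 (-0.43), Adar (-0.65), Tap1 (-0.63), Tap2 (-0.52), Psmb8 (-0.27) and Psmb9 (-0.14), and with other-tissue genes the same 8, at -0.21, -0.22, -0.41, -0.62, -0.60, -0.50, -0.24 and -0.12. These thresholds are higher by construction. With the upper quartile Oasl1 had -0.04 and Adar -0.02. Over the alternatives other than the 2 higher thresholds, 42 of 52 members kept their call or lack of it. Leaving out zeros, keeping old symbols and a variance trend changed no member's call.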

Other observations

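Some genes of the pathway had fewer than 4 probesets and stand outside the counts above. Ifit3 had 5.71, 8.96 and 7.70 on arrays 1, 2 and 3 over 3 probesets, each of them lowest on array 1. The GTPase genes Ifi47 and Gvin1 had 9.22, 9.50 and 9.23, and 8.85, 8.96 and 8.56, over 3 probesets each. Psme2, a proteasome activator subunit, had 8.95, 8.81 and 9.01 over 2 probesets, and its partner Psme1 had 9.44 ± 0.17 (SD, n = 3) over 14. The class II editor genes H2-DMb1 and H2-DMb2 had 3 probesets each, and H2-DMb1 was highest on array 1, with 5.83, while H2-DMb2 had 4.83, 4.84 and 4.68. Among interferon ligands, Ifnb1 had 4.03, 6.72 and 4.22 and the interferon-lambda gene Ifnl2 had 7.35, 6.91 and 6.97, over 2 probesets each. With genes of 1 probeset allowed, Ifnl2 was called, at a margin of 1.03 (adjusted p = 0.00283, limma), and Ifnb1 was not.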
